A study of Mus musculus with 6 samples.

Results

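The core circadian clock genes are those of the transcription factors and repressors that form the daily feedback loop of gene expression. Of 10 such genes, Arntl, Clock and Npas2 of the positive limb, Per1, Per2, Cry1, Cry2, Nr1d1 and Nr1d2 of the negative limb and the output gene Dbp, 9 were measured among the 22180 genes tested. A gene was taken where a probe set carried its symbol and no other, and where several did, the one with the highest mean was used. The probe set of Per2 also carries a second symbol, so Per2 is not described.

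The arrays measured primary hepatocytes, freshly isolated liver cells kept in culture, from wild-type adult male C57Bl/6 mice. Cells in serum-free William's medium received GW4064 at 2 µM, which activates the bile acid receptor FXR, or the solvent DMSO without agonist, and RNA was taken after 4 h. There were 3 GW4064 arrays and 3 DMSO arrays, numbered 1 to 3 in the titles, and the series design names independent hepatocyte preparations. No label used here says that a number marks a preparation or gives the time of day of isolation, so the phase of the clock in each culture is not known.

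In the clock loop, the proteins of Arntl (also called Bmal1) and Clock, or Npas2 in place of Clock, bind DNA as a pair at E-box sequences and activate the period genes Per1 and Per2, the cryptochrome genes Cry1 and Cry2, the Rev-erb genes Nr1d1 and Nr1d2 and the output gene Dbp. Period and cryptochrome proteins then block the activators, while the Rev-erb repressors compete with ROR activators at response elements in Arntl, so that Arntl runs in antiphase to its targets. In liver the clock times bile acid, glucose and lipid metabolism, and glucocorticoid and cyclic AMP signals can shift its phase, in part through Per1.

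The sequences below show matches to the letters of E-box elements and of Rev-erb and ROR response elements. They come from RefSeq windows on GRCm38.p6 that run from 250 bases before to 50 bases after each annotated start. Windows were found for 9 of the 10 genes, 13 windows in all, because some genes have more than 1 start. The first pair of lines holds both matches in Arntl to ANTAGGTNA, the letters used here for a Rev-erb and ROR response element, in capitals. The one nearer the 5′ end lies at chr7:113207493-113207522 and the other at chr7:113207529-113207558, both on the plus strand.
Arntl, upstream element: ttggtcggaaAGTAGGTTAgtggtgcgaca
Arntl, downstream element: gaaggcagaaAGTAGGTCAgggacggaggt

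The next lines hold the matches to the variant E-box CACGTT, which reads AACGTG on the other strand, in Cry2 at chr2:92434218-92434247 and in Nr1d1 at chr11:98775388-98775417. Both are on the minus strand, and the capitals mark the variant E-box.
Cry2, variant E-box: acacatggtgggAACGTGagggggcggagc
Nr1d1, variant E-box: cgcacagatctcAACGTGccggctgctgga

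The last lines give the 250 bases before the start of the repressor genes whose windows held the canonical E-box CACGTG, Per1 at chr11:69098699-69098948 on the plus strand and Cry1 at chr10:85185055-85185304 on the minus strand. Capitals mark CACGTG and, in Cry1, AACGTG upstream of it.
Per1, upstream 250 bases: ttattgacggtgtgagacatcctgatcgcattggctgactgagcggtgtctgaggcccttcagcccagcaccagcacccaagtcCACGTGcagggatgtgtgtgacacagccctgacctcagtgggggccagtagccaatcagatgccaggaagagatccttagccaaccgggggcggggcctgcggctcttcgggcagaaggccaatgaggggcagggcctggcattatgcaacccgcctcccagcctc
Cry1, upstream 250 bases: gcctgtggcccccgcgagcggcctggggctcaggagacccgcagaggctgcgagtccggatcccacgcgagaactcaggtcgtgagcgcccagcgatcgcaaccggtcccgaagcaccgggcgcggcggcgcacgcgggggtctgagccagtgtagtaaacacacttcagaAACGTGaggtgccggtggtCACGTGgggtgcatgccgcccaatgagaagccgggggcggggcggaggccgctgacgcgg

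Both strands were searched. The canonical E-box was found in 2 of the 13 clock gene windows, against 7.15% of all 32851 windows. The variant E-box was found in 3 of the 13, against 4.68%, and the Rev-erb and ROR element in 2 of the 13, both of them overlapping windows of Arntl, against 2.04%. No clock gene window held the D-box TTANGTAA, the cyclic AMP element TGACGTCA, the glucocorticoid element (AGAACA and TGTNCT, 3 bases apart) or the FXR element (AGGTCA and TGACCT, 1 base apart), which says only that these letters are not in these windows. A match is a description of the sequence and does not show binding in these cells.

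The treatment was visible in the arrays through 2 well-known FXR target genes. Nr0b2, the gene of the repressor SHP, averaged 6.89 ± 0.22 with GW4064 and 4.51 ± 0.06 with DMSO, and Abcb11, the gene of the bile salt export pump, averaged 7.97 ± 0.17 and 4.88 ± 0.18 with GW4064 and DMSO (mean log2 intensity ± SD, n = 3 arrays each). Array medians over all genes lay within 0.0501 of each other on the log2 scale, and the means of the 9 clock genes ran from 5.13 for Dbp to 9.05 for Clock, all above these medians of 4.19 to 4.24. Values of different genes come from different probe sets and are not compared with each other. All 7 measured hepatocyte marker genes had mean levels from 6.67 to 12.83, above the array medians. None passed between GW4064 and DMSO or between replicate numbers, against 0.0496% and 1.07% of all genes. Hnf4a had a log2 change of 0.55 without overlap between groups (SE 0.12, limma adjusted p = 0.393). It was the only 1 of the 7 with an unadjusted limma p under 0.05 between groups, against 5.66% of all genes. Between numbers 2 of the 7 had an unadjusted p under 0.05 in the limma F test, against 14.8% of all genes. With 3 arrays per group, precision is limited throughout.

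None of the 9 clock genes passed the threshold between GW4064 and DMSO (limma with Benjamini-Hochberg adjustment over all genes, adjusted p under 0.05), where 0.0496% of all genes did. With the replicate number as a block, which fits differences within same-numbered pairs, again none of the 9 passed, against 0.0812% of all genes. At an unadjusted p under 0.05 there was 1 clock gene without the block, Arntl, against 5.66% of all genes, and 2 with it, Arntl and Per1, against 9.13%. The adjusted p-values of the 9 genes ran from 0.751 to 0.998 without the block and from 0.265 to 0.964 with it. Their median log2 change was -0.13, against -0.016 over all genes, and 6 of the 9 changes were below 0, as were 55.4% of all genes.

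**Figure D1:**
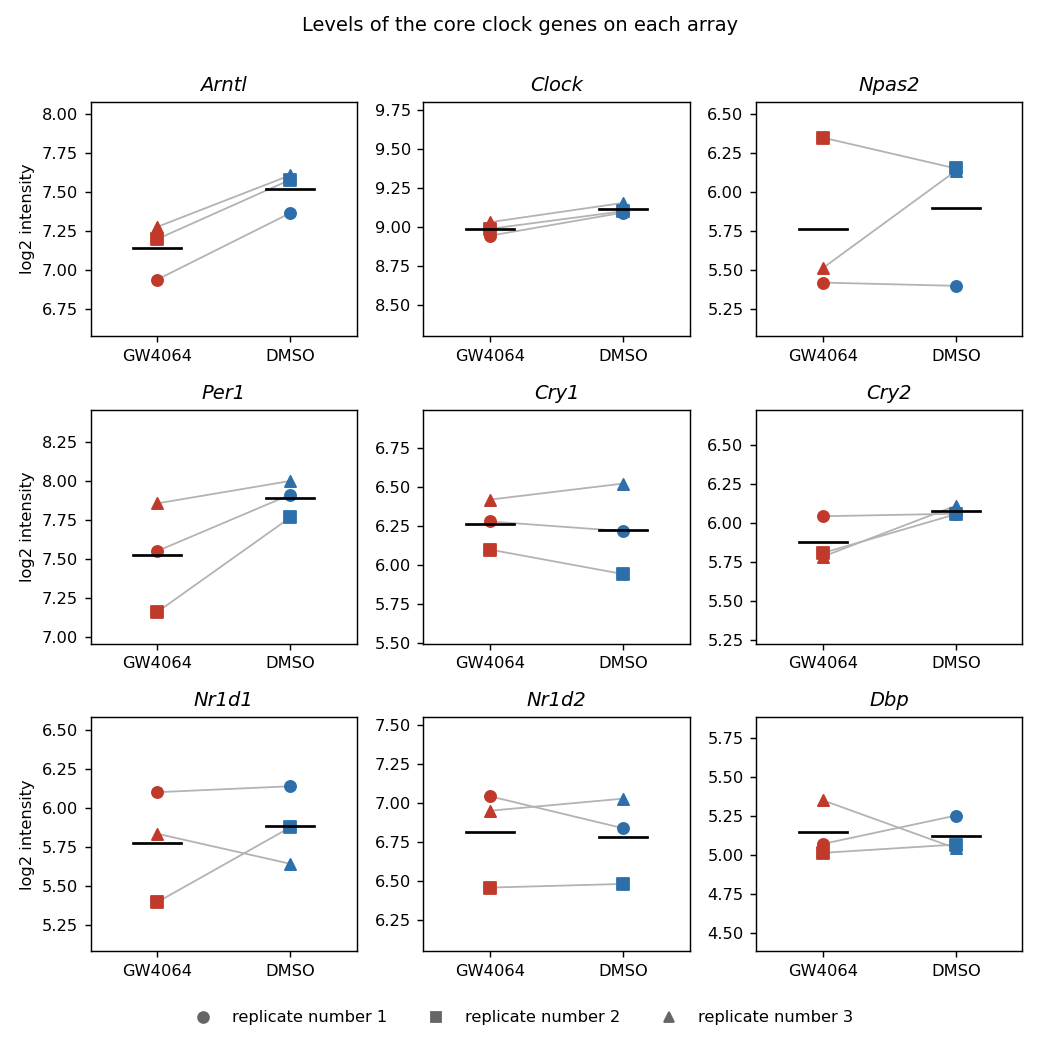
Log2 intensity of each of the 9 measured clock genes on the 3 GW4064 arrays (red, left) and the 3 DMSO arrays (blue, right). Marker shapes give the replicate number, grey lines join arrays of the same number, black bars are group means, and every panel spans 1.5 log2 units. In Arntl, Clock and Cry2 all GW4064 arrays lie below all DMSO arrays, while in Npas2, Cry1, Nr1d1, Nr1d2 and Dbp the lines run in both directions.

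In the positive limb, Arntl (probe set 17481960) encodes the partner that both Clock and Npas2 need. It had 6.94, 7.20 and 7.28 on GW4064 arrays 1, 2 and 3, against 7.37, 7.58 and 7.61 on DMSO arrays 1, 2 and 3. All GW4064 values lay below all DMSO values, and array 1 was the lowest in both groups. The log2 change was -0.38 (SE 0.12, 95% interval -0.65 to -0.11, limma adjusted p = 0.751), a ratio of 0.769. In pairs 1, 2 and 3 the differences were -0.43, -0.38 and -0.33. With the replicate block the standard error was 0.08 and the adjusted p 0.265, so the difference was alike in all pairs but did not pass over all genes.

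Clock (probe set 17448960), the gene of the DNA-binding partner of Arntl, differed little between arrays. Its values were 8.94, 8.99 and 9.03 on the GW4064 arrays, against 9.09, 9.10 and 9.15 on the DMSO arrays. These groups did not overlap either, with a log2 change of -0.13 (SE 0.09, 95% interval -0.33 to 0.07, limma adjusted p = 0.963). The pairs gave -0.15, -0.11 and -0.12, a small and even difference. The range over all 6 arrays was 0.210, the narrowest of the 9 genes.

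Npas2 (probe set 17212087), which can stand in for Clock, had the widest range of the 9 genes, 0.950. It measured 5.42, 6.35 and 5.51 on GW4064 arrays 1, 2 and 3, against 5.40, 6.15 and 6.13 on the DMSO arrays. The groups overlapped, and array 1 was the lowest in both, although GW4064 array 3 lay close to GW4064 array 1. The pair differences were 0.02, 0.20 and -0.62, so the mean change of -0.13 (SE 0.27, 95% interval -0.75 to 0.48, limma adjusted p = 0.998) rests on pair 3 and is 0.11 without that pair.

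Among the repressors, Per1 (probe set 17251527), a period gene that glucocorticoid and cyclic AMP signals can induce quickly, had 7.55, 7.16 and 7.86 on the GW4064 arrays, against 7.91, 7.77 and 8.001 on the DMSO arrays. The GW4064 value was lower in every pair, by an amount that varied, with differences of -0.36, -0.61 and -0.14. The groups overlapped, because GW4064 array 3 lay above DMSO array 2. The log2 change was -0.37 (SE 0.16, 95% interval -0.74 to 0.003, limma adjusted p = 0.881), and the blocked adjusted p was 0.412. Without GW4064 array 2 the change was -0.19.

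The cryptochrome genes encode the partners of the period proteins and differed from each other in pattern. Cry1 (probe set 17243644) had 6.28, 6.10 and 6.42 on the GW4064 arrays, against 6.22, 5.94 and 6.52 on the DMSO arrays. Its groups overlapped fully, and its log2 change was 0.04 (SE 0.15, 95% interval -0.31 to 0.38, limma adjusted p = 0.998), with 0.06, 0.16 and -0.10 in the pairs. Cry2 (probe set 17388389) had 6.04, 5.81 and 5.78 on the GW4064 arrays, against 6.06, 6.06 and 6.11 on the DMSO arrays. The Cry2 groups did not overlap, although GW4064 array 1 lay only 0.016 below its pair. Its log2 change was -0.20 (SE 0.10, 95% interval -0.43 to 0.03, limma adjusted p = 0.932), and the pairs gave -0.02, -0.25 and -0.33.

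The Rev-erb genes encode the heme-binding repressors of Arntl. Nr1d1 (probe set 17268884) had 6.10, 5.40 and 5.83 on the GW4064 arrays, against 6.14, 5.87 and 5.64 on the DMSO arrays. Its groups overlapped and its pairs went both ways, with -0.04, -0.48 and 0.19, and a log2 change of -0.11 (SE 0.19, 95% interval -0.53 to 0.31, limma adjusted p = 0.998). Nr1d2 (probe set 17303625) had 7.04, 6.46 and 6.95 on the GW4064 arrays, against 6.84, 6.48 and 7.03 on the DMSO arrays. Array 2 was the lowest in both groups, and the change between groups was 0.03 (SE 0.18, 95% interval -0.38 to 0.45, limma adjusted p = 0.998).

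Dbp (probe set 17477979), a PAR bZIP transcription factor gene that the Arntl and Clock pair drives directly, had 5.07, 5.01 and 5.35 on the GW4064 arrays, against 5.25, 5.07 and 5.04 on the DMSO arrays. The groups overlapped, and the pair differences of -0.18, -0.05 and 0.31 did not share a sign. Its log2 change was 0.02 (SE 0.12, 95% interval -0.24 to 0.29, limma adjusted p = 0.998).

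**Figure D2:**
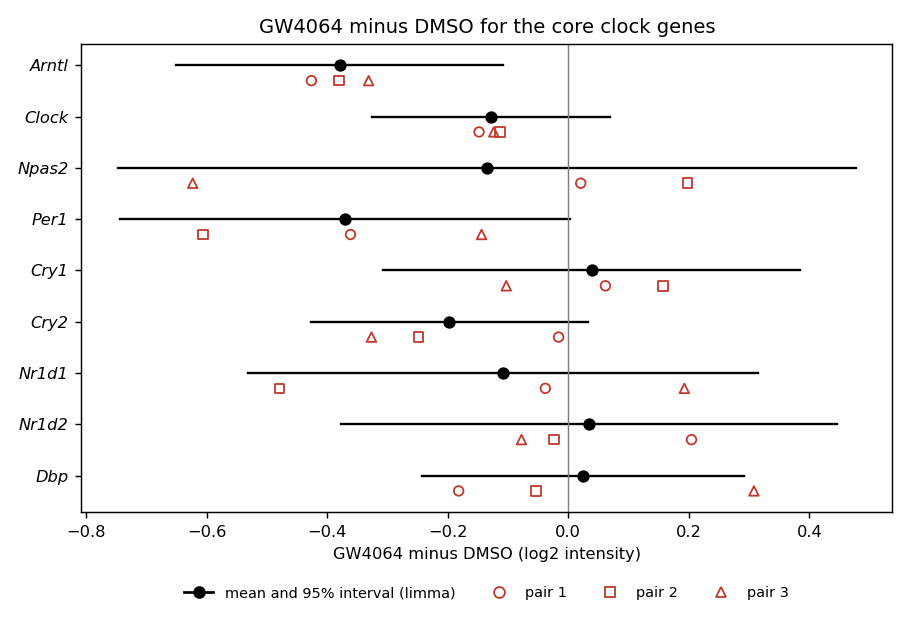
GW4064 minus DMSO in log2 intensity for each clock gene. Black points and bars are limma estimates with 95% intervals from the fit without the block (n = 3 arrays per group), and open red symbols below them are the differences in same-numbered pairs 1, 2 and 3. The pairs of Arntl sit together between -0.43 and -0.33, and those of Npas2 span -0.62 to 0.20.

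Counted over the 9 genes, 3 had all GW4064 arrays below all DMSO arrays, namely Arntl, Clock and Cry2, and none had them all above. The corresponding shares of all genes were 6.19% and 4.58%. The GW4064 value was lower in all 3 pairs in 4 of the 9, namely Arntl, Clock, Per1 and Cry2, against 18.6% of all genes, and higher in all 3 pairs in none, against 12.6%. These 4 genes were from both limbs of the loop.

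Replicate number separated the clock genes more than treatment did in 6 of the 9, when the range of the 3 replicate-number means was set against the size of the GW4064 change. The same held for 78.8% of all genes, so this count is not particular to the clock. The exceptions were Arntl, Clock and Cry2. The median range of the replicate-number means was 0.450 over the clock genes and 0.188 over all genes.

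The replicate number with the lowest mean over both groups was the same for all measured genes within a limb. The order of the other numbers was not, and no test was run of a difference between the limbs. The means over the GW4064 and DMSO arrays of numbers 1, 2 and 3 were 7.15, 7.39 and 7.44 for Arntl and 5.41, 6.25 and 5.82 for Npas2. Number 1 had the lowest mean in all 3 positive-limb genes, as it did in 29.1% of all genes. In Per1 the means were 7.73, 7.46 and 7.93, in Cry1 6.25, 6.02 and 6.47, and in Nr1d2 6.94, 6.47 and 6.99. Number 2 had the lowest mean in all 6 measured genes of the negative limb and output, as it did in 34.2% of all genes. In Nr1d1 the means were 6.12, 5.63 and 5.74 (limma F test, unadjusted p = 0.0536). Within single groups the lowest array could differ, being number 3 with DMSO in Nr1d1 and Dbp and with GW4064 in Cry2. For Clock, Cry2 and Dbp the differences between numbers lay within the spread, with limma F test p-values of 0.735, 0.552 and 0.525 before adjustment.

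**Figure D3:**
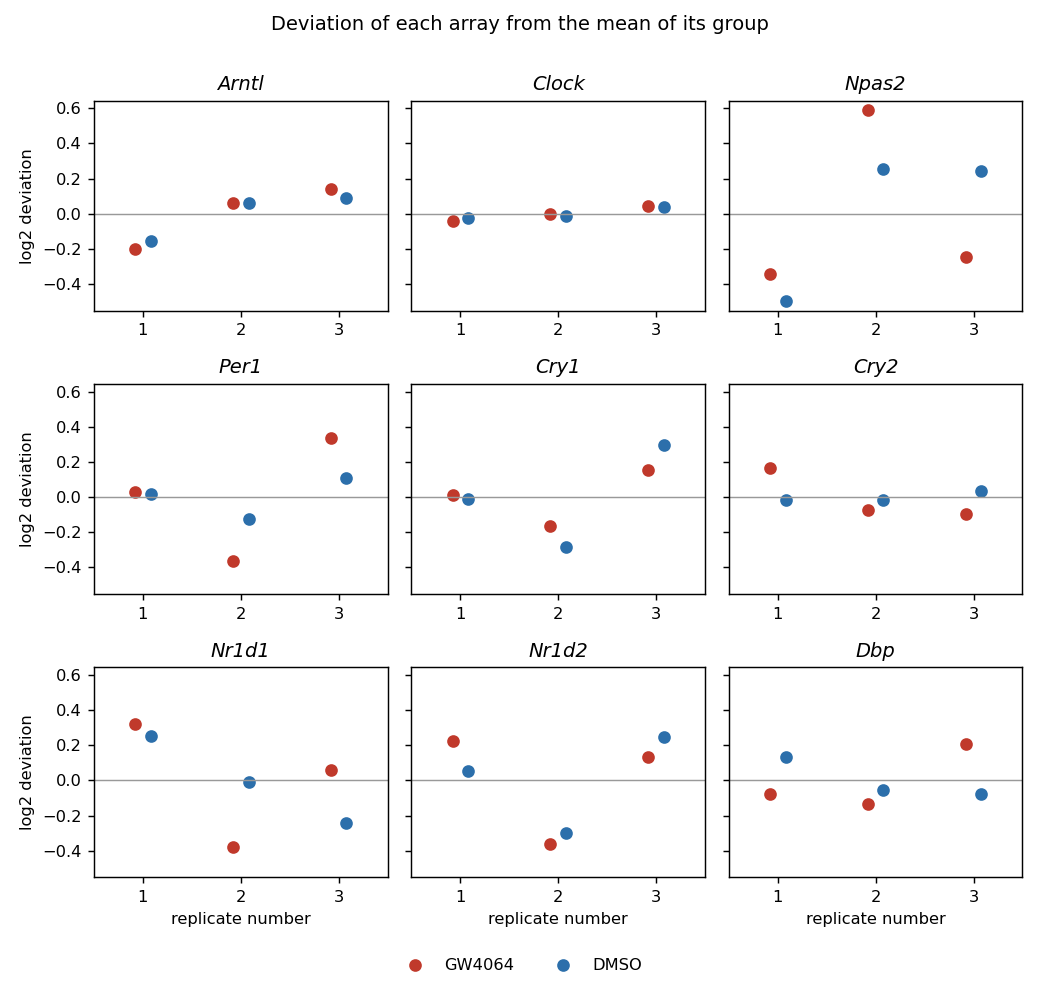
Deviation of each array from the mean of its own group, in log2 units, against replicate number, with GW4064 arrays in red and DMSO arrays in blue. Same-numbered arrays deviate together in Arntl, Cry1 and Nr1d2, where number 2 is low in Cry1 and Nr1d2 and number 1 is low in Arntl. In Dbp and Cry2 they do not.

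The differences between replicate numbers were tested in a model with treatment and number (limma moderated F test, adjusted over all genes). None of the 9 clock genes passed, against 1.07% of all genes, while 5 had an unadjusted p under 0.05, against 14.8% of all genes. These were Arntl, Npas2, Per1, Cry1 and Nr1d2. The smallest adjusted p was that of Nr1d2 (0.155), with number 2 lower than number 1 by a log2 difference of -0.47 (SE 0.11). Npas2 followed with an adjusted p of 0.216 and number 2 above number 1 by 0.84 (SE 0.20). With an intensity trend in limma's variance prior, Npas2, Per1, Cry1 and Nr1d2 passed, 4 of the 9, against 7.93% of all genes, and among genes above the median level Nr1d2 alone did (adjusted p = 0.0480), against 6.03%.

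The median share of the sum of squares over the 6 arrays that lay between GW4064 and DMSO was 4.46% over the 9 clock genes and 11.8% over all genes. The median share between replicate numbers was 45.6% over the clock genes, 46.7% over all genes and 58.7% over the genes whose mean level lay within the range of the clock genes. The clock genes as a list were thus not above the background in either share. They differed among themselves, with treatment at 68.9% in Arntl, 80.3% in Clock and 57.6% in Cry2, and replicate number at 93.2% in Nr1d2, 91.2% in Cry1 and 76.8% in Npas2. Per1 was divided between treatment, at 43.1%, and number, at 45.6%. The shares do not allow for number having more levels than treatment, which raises its share even in noise. In Dbp most of the spread, 69.9%, followed neither.

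**Figure D4:**
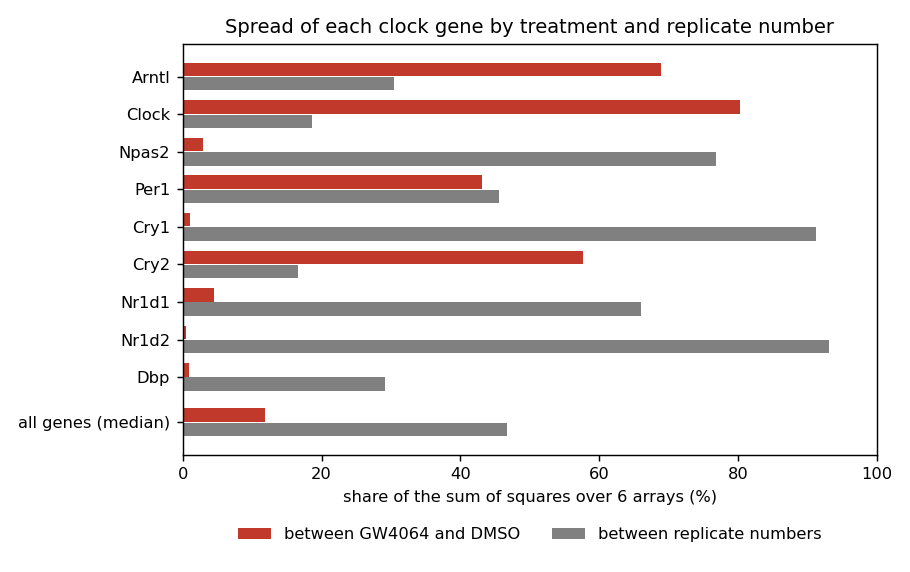
Share of each clock gene's sum of squares over the 6 arrays that lies between GW4064 and DMSO (red) and between replicate numbers (grey), in percent, with the median of all genes in the bottom row. Treatment takes the larger share in Arntl, Clock and Cry2, and replicate number in the other 6 genes. Replicate number has more levels than treatment, so it tends to take the larger share even in noise.

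Among 6 Kupffer cell and macrophage markers, 1 differed between replicate numbers, against 1.07% of all genes. Cd68, a lysosomal gene that is high in macrophages, had 9.86, 8.46 and 9.93 on GW4064 arrays 1, 2 and 3, against 9.63, 8.53 and 10.02 on the DMSO arrays, and was low at number 2 in both groups, like Per1, Cry1 and Nr1d2 (limma F test, adjusted p = 0.0141). Its call was lost without either array of number 2 or of number 3, with adjusted p-values of up to 0.0809. The other 5 did not pass and did not share its order, with Marco at means of 3.94, 4.56 and 4.43 for numbers 1, 2 and 3 (adjusted p = 0.177) and Adgre1 at 2.84, 3.11 and 2.92. The summed level of the list ran from 8.71 to 10.03 on the GW4064 arrays and from 8.79 to 10.11 on the DMSO arrays, and it follows Cd68, the brightest of the 6. Clec4f, which defines Kupffer cells, averaged 3.66 with GW4064 and 3.90 with DMSO, below the array medians. The part of these cells in the replicate-number differences of the clock genes was not tested. In bulk RNA, fewer cells of a type and less RNA per cell cannot be told apart. No gene of the endothelial, stellate or cholangiocyte lists passed the limma F test, while 3 endothelial and 2 cholangiocyte genes had an unadjusted p under 0.05, as did 14.8% of all genes.

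Further clock components include the ROR, DEC and PAR bZIP factors and the kinases and ligases that act on period and cryptochrome proteins. Of 22 listed, 18 were measured, and none passed between GW4064 and DMSO with or without the block. None had an unadjusted p under 0.05 without the block and 1 did with it, Nfil3, against 5.66% and 9.13% of all genes. Their changes lay between -0.25 and 0.17 with a median of -0.015, with 9 above 0 and 9 below. Bhlhe40, the gene of the E-box repressor DEC1, had 9.95, 9.93 and 9.93 on the GW4064 arrays, against 9.69, 9.85 and 9.76 on the DMSO arrays. Its groups did not overlap, and its log2 change was 0.17 (SE 0.09, limma adjusted p = 0.939). Btrc, which encodes an F-box protein that marks period proteins for breakdown, had 6.96, 6.80 and 6.78 on the GW4064 arrays, against 6.997, 7.06 and 7.09 on the DMSO arrays, again without overlap (log2 change -0.20, SE 0.10, adjusted p = 0.910). The F-box gene Fbxw11 went the other way without overlap, at 0.13 (SE 0.10), and Arntl2 lay lower without overlap, at -0.14 (SE 0.09). Of the 18 genes 2 thus lay lower and 2 higher without overlap, against 6.19% and 4.58% of all genes. The ROR gene Rorb and the DEC2 gene Bhlhe41 had -0.21 (SE 0.11) and -0.24 (SE 0.14). Their mean levels of 3.27 and 3.61 lay below the array medians, and their pairs went both ways. The ROR gene Rora, at a mean level of 6.75, had -0.13 (SE 0.09), with overlap between groups.

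Between replicate numbers none of these 18 passed either, against 1.07% of all genes, and 1 had an unadjusted p under 0.05, against 14.8%. That was Nfil3, the gene of the repressor that competes with Dbp for D-box sites. It had 6.63, 6.31 and 7.13 on GW4064 arrays 1, 2 and 3, against 6.74, 6.76 and 7.32 on the DMSO arrays. Array 3 was the high one in both groups, with number 3 above number 1 by 0.54 (SE 0.12, limma F test adjusted p = 0.103). Csnk1e, a casein kinase gene that acts on period proteins, had an adjusted p of 0.392, and Ciart and Sirt1, of a repressor and a deacetylase of the loop, each had 0.440.

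Of 18 listed genes that the clock is known to drive, 17 were measured. None passed between GW4064 and DMSO, with or without the block, while 3 had an unadjusted p under 0.05 without it and 4 with it, against 5.66% and 9.13% of all genes. Alas1, the first enzyme gene of heme synthesis, whose product heme is the ligand of the Rev-erb proteins, had 8.99, 9.30 and 8.92 on the GW4064 arrays, against 8.49, 8.79 and 8.59 on the DMSO arrays. The groups did not overlap (log2 change 0.44, SE 0.13, limma adjusted p = 0.689, 0.247 with the block). Usp2, a deubiquitinase gene with strong rhythms in many tissues, had 5.27, 5.04 and 5.19 on the GW4064 arrays, against 4.89, 4.93 and 4.75 on the DMSO arrays, also without overlap (log2 change 0.31, SE 0.10, adjusted p = 0.789). Lpin1, of a phosphatidate phosphatase, lay lower without overlap, at -0.31 (SE 0.13, adjusted p = 0.863). The deadenylase gene Noct had 0.35 (SE 0.20, adjusted p = 0.949), with overlap between groups. Of the 17 genes 1 thus lay lower and 2 higher without overlap, against 6.19% and 4.58% of all genes. The median change over the 17 genes was 0.03, and 11 were above 0.

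Gys2 is the liver glycogen synthase gene and a direct target of the Clock protein. It was the 1 output gene of 17 that differed between replicate numbers (limma F test, adjusted p = 0.0231), against 1.07% of all genes. It had 7.13, 6.31 and 5.81 on GW4064 arrays 1, 2 and 3, against 7.35, 6.67 and 6.29 on the DMSO arrays, so number 1 was highest and number 3 lowest in both groups. Its adjusted p reached up to 0.116 with single arrays left out, and the call was lost without either array of number 2 or of number 3. The cell cycle kinase gene Wee1, an E-box target, had number 2 below number 1 by a log2 difference of -0.18. Number 3 lay above number 1 by 0.29 (SE 0.09, limma F test adjusted p = 0.161). This order was seen in Per1 and Cry1, but also in the macrophage marker Cd68, and not in Nr1d1 or Cry2. Alas1 and Tfrc had adjusted p-values of 0.312 and 0.339.

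Signals that can reset the clock were read through 14 genes, all measured. None passed between GW4064 and DMSO, with or without the block, while 4 had an unadjusted p under 0.05 without the block and 6 with it, against 5.66% and 9.13% of all genes. Of the 14 changes 11 were below 0, against 55.4% over all genes. Sik1, a cyclic AMP-induced kinase gene that restrains light-driven resetting in the mouse brain clock, had 8.33, 8.16 and 8.02 on the GW4064 arrays, against 7.63, 7.51 and 7.35 on the DMSO arrays. All GW4064 values lay above all DMSO values (log2 change 0.67, SE 0.12, limma adjusted p = 0.176, 0.0696 with the block). The glucocorticoid-induced genes Tsc22d3 and Fkbp5 lay lower on all GW4064 arrays than on any DMSO array, with log2 changes of -0.42 (SE 0.11, adjusted p = 0.601) and -0.38 (SE 0.11, adjusted p = 0.688). The immediate early gene Egr1 had -0.37 (SE 0.12, adjusted p = 0.789), also without overlap. Of the 14 genes 3 thus lay lower and 1 higher without overlap, against 6.19% and 4.58% of all genes. The groups overlapped in Fos, Fosb, Junb and Dusp1, with log2 changes of -0.11 (SE 0.13), -0.008 (SE 0.17), -0.06 (SE 0.13) and -0.08 (SE 0.10). They also overlapped in Nr4a1, at -0.32 (SE 0.16), and in Crem, another gene of cyclic AMP signals, at 0.08 (SE 0.12). Other glucocorticoid-induced genes of the list overlapped between groups or lay on the other side of 0, with log2 changes of -0.21 in Tat (SE 0.29), -0.17 in Klf9 (SE 0.29) and 0.17 in Sgk1 (SE 0.10). The part of these signals in the Per1 values, whose groups overlapped, was not tested.

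**Figure D5:**
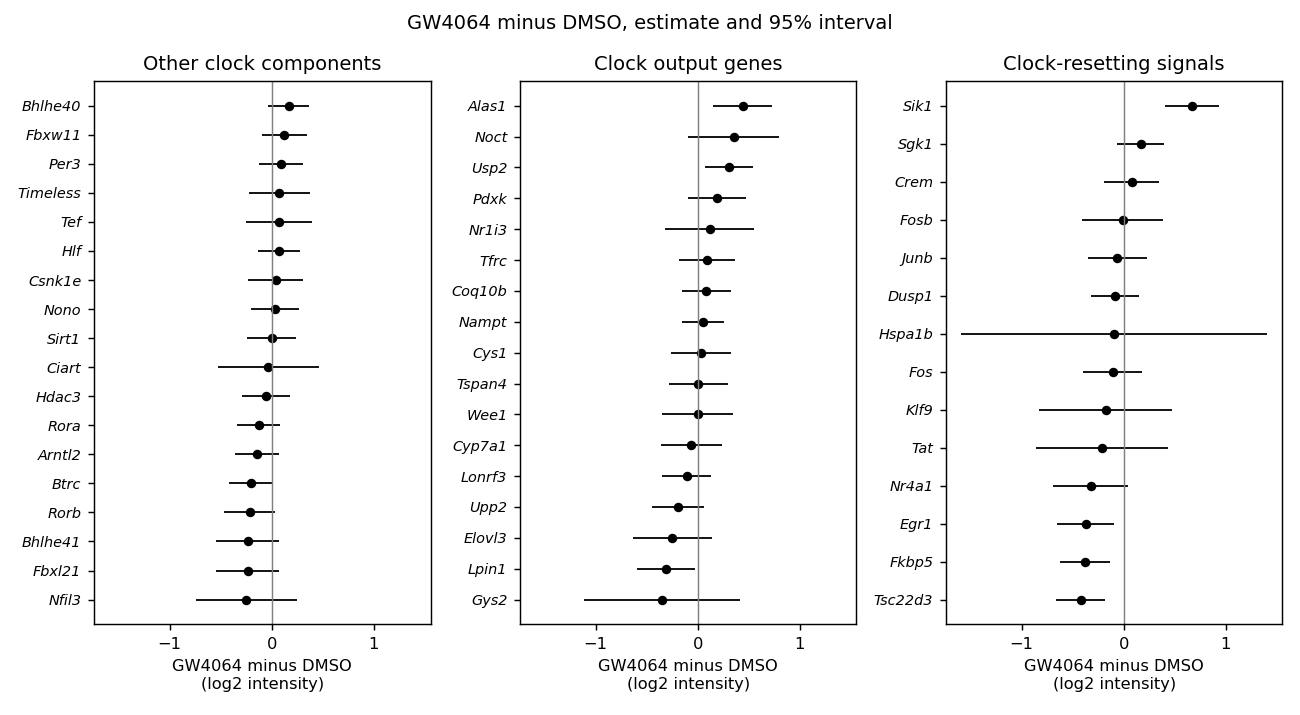
GW4064 minus DMSO in log2 intensity for 18 further clock components, 17 clock output genes and 14 genes of clock-resetting signals, with limma 95% intervals from the fit without the block (n = 3 arrays per group). Sik1 has the highest value at 0.67 and Tsc22d3 the lowest at -0.42, and Hspa1b has the widest interval.

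Between replicate numbers, 3 of these 14 genes passed the F test, against 1.07% of all genes. Hspa1b, a heat shock gene that follows temperature and stress, had 6.28, 5.89 and 8.20 on GW4064 arrays 1, 2 and 3, against 6.35, 6.05 and 8.24 on the DMSO arrays, with an adjusted p of 0.00478. Tat and Klf9, both induced by glucocorticoids, were likewise highest at number 3. Number 3 exceeded number 1 by 0.91 (SE 0.10) in Tat and by 0.89 (SE 0.11) in Klf9, with limma adjusted p-values of 0.0288 and 0.0339. Both calls were lost without either array of number 2 or number 3, with adjusted p-values of up to 0.272 and 0.261. Hspa1b passed with each array left out. Other glucocorticoid-induced genes of the list did not share this difference between numbers. Number 3 minus number 1 was -0.20 in Fkbp5 (SE 0.10), 0.14 in Tsc22d3 (SE 0.12) and 0.006 in Sgk1 (SE 0.12). Their limma F test adjusted p-values were 0.506, 0.780 and 0.984.

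The genes closest in pattern over the 6 arrays were chosen by the smallest root mean square difference of gene-centred log2 values. Genes whose symbols begin or end like those of predicted, clone or small-RNA genes were left out, so closer genes may exist among them. For Arntl these were Mid1, a ubiquitin ligase gene, at 0.0482, the long noncoding RNA gene Wincr1 at 0.0484 and the zinc-finger gene Ciz1 at 0.0488, where the centred values of Arntl itself had a root mean square of 0.228. For Dbp they were Ccdc8, Fam160b2 and the phosphodiesterase gene Pde10a, at 0.0293, 0.0301 and 0.0338, against 0.124 for Dbp. None of the 6 is a listed clock gene, and none passed between GW4064 and DMSO.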

How the data were processed

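Biotin-labelled RNA was hybridised to Affymetrix MoGene-2_0-st arrays, which have 1 colour, per the labels' protocols. The authors deposited RMA-normalized log2 intensities, 1 per probe set. RMA and Partek are the tools named, per the submitters' processing notes. The log base is not stated and was inferred from a range of 0.94 to 13.07. No genome build for the arrays is given in the sources used here. Of 41345 probe sets, 23521 carry 1 gene symbol in the platform annotation, 1814 several and 16010 none, which left 22180 genes with no filter on dim genes. No pair of arrays was identical.

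GW4064 minus DMSO was fitted with limma 3.58.1 (lmFit, eBayes) in R 4.3.3 without a block, two-sided, with Benjamini-Hochberg adjustment over all genes and a threshold of 0.05. Replicate numbers were tested by limma's F test in a model with treatment. With 3 arrays in each group, exact permutation p-values are at least 0.1 (two-sided), so none were used. Same-numbered arrays deviated together from their group means (correlations 0.26, 0.34 and 0.45 for numbers 1, 2 and 3, all over 0.1), so the fit with the replicate block stands beside results. The numbers come from the titles. The p-values measure the spread between these arrays. The fits were run on simulated data with planted changes larger than those of the clock genes and noise independent between arrays. These simulations do not show whether changes of the size seen in the clock genes would be found.

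The clock genes and the further lists were chosen with earlier results of these data known. All 9 measured clock genes are named, and of each further list up to 4 genes with the smallest p in each test. Further members of some lists are named to show how far the members differed. The genes closest in pattern were sought for Arntl and Dbp, and Per2, also intended, had no usable probe set. Alternatives were quantile normalization, centring of arrays, filters on dim genes, all probe sets, an intensity trend, the block, and leaving out arrays or pairs. Motifs were sought in RefSeq windows on GRCm38.p6.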

Additional observations from a re-analysis of the deposited data

How the results depend on the processing

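Between GW4064 and DMSO the count of clock genes past the threshold stayed at 0 in all 16 alternatives, as it did for the further components, the output genes and the resetting signals. Over all genes 11 passed, against 18 with the replicate block, 2 with all probe sets tested and 2 to 5 with single arrays or pairs left out. The block, which fits the pairing of the replicate numbers, changed no call of a clock or listed gene.

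Of 144 recomputed log2 changes of the 9 clock genes, 128 kept their sign and none passed. The other 16 turned, all with an array or a pair left out. Npas2 then ran from -0.43 to 0.11, Cry1 from -0.10 to 0.19, Nr1d1 from -0.27 to 0.082, Nr1d2 from -0.12 to 0.21 and Dbp from -0.12 to 0.13. Arntl stayed between -0.46 and -0.28, Clock between -0.15 and -0.11, Per1 between -0.54 and -0.19 and Cry2 between -0.29 and -0.13.

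Between replicate numbers the clock genes had 0 calls, but 4 with an intensity trend and 1 among genes above the median level. The further components had 0, but 1, Nfil3, under each of these 2 settings. The output genes had 1, against 3 with the trend, 2 above the median level, 0 without a treatment term, 0 with all probe sets and 0 to 1 with arrays left out. Of all genes 1.07% passed, against 7.93% with the trend and 6.03% of those above the median level, and 0 of 41345 probe sets passed when all were tested. Testing all probe sets or fewer genes changes the number adjusted over, and the cause of the other differences was not tested. The number of arrays limits what could be detected.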
